A study of Rattus norvegicus with 5 samples.

Results

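The CC and XC chemokines described here are 6 rat genes, Ccl2, Ccl3, Ccl4, Ccl5, Ccl20 and Xcl1, read by 7 probe sets among the 8740 that remained after control probe sets were left out. They were found by symbol in a platform annotation table, are the whole list among 4736 named genes, and had been chosen by their intensities on these same 5 arrays, with earlier results known. Ccl2 had 2 probe sets and each of the other genes had 1. All 6 genes were above the detection floor used here, a scaled intensity of 173, on at least 1 array, Ccl4 on 2 arrays and Xcl1 on 1 array only.

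Rat lung RNA was hybridised to 5 one-colour arrays, with 1 array per group. The dust groups had received EHC-93, a preparation of urban particulate matter, by instillation into the trachea. Their pools held equal amounts of RNA from 2, 4 and 6 h (early), 15, 18 and 21 h (intermediate) and 24, 32 and 40 h (late). The sham pool was made from lungs taken 2, 15 and 24 h after saline was instilled, and the untreated pool from 3 rats with no instillation. The sources used here do not give strain, sex, age, dose or the number of rats behind each instilled pool. Each pool averages several times or rats, so the spread between animals cannot be seen, and a difference between arrays is given with no error and no p-value. Each dust pool shared only 1 of its 3 times with the sham pool.

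Chemokines are small secreted proteins that draw leukocytes along a gradient by binding receptors coupled to G proteins. CC chemokines carry a pair of adjacent cysteines near the start of the mature protein, and XC chemokines lack one cysteine of that pair. In the lung, alveolar macrophages and epithelial cells are known to make several of them after contact with particles or microbes, often through the transcription factor NF-kB. Ccl2 attracts monocytes through the receptor Ccr2, and Ccl3 and Ccl5 act on Ccr1. Ccl4 attracts macrophages and T cells. Ccl20 attracts dendritic cells and lymphocytes that carry Ccr6, and Xcl1, made by activated T and NK cells, acts on dendritic cells that carry Xcr1.

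Promoter windows were at hand in RefSeq's table (rat assembly GRCr8) for 2 of the 6 genes. Both are shown because they were available, and these 2 were not picked from the 6 by their pattern. Ccl20 was highest on the early dust array, and Xcl1 was above the floor on the sham array alone. The windows are 300 bases around each gene's start, 5′ to 3′ on the gene's own strand. Ccl20 lies at chr9:91836909-91837208 on the + strand, and Xcl1 at chr13:79785391-79785690 on the - strand. Capitals mark matches to GGGNNNNNCC, a loose form of the NF-kB site, on either strand.
Ccl20: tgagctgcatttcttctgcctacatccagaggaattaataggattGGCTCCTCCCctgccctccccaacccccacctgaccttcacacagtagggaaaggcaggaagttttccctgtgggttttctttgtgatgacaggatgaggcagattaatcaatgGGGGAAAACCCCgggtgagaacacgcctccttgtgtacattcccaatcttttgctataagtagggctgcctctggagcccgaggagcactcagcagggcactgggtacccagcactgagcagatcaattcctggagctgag
Xcl1: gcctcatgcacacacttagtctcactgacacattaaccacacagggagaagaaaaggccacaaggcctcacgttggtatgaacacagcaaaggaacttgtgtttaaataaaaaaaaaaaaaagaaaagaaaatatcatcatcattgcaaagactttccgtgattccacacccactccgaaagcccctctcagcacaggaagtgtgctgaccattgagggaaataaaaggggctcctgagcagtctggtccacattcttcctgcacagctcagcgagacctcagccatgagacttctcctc
The Ccl20 window held 5 such matches, of which 4 overlap one another within bases 160 to 171 and 1 lies at bases 46 to 55, counted from the window's 5′ end. Bases 161 to 170 fit the pattern on both strands and are counted for each. The Xcl1 window held 0. At this looseness 47.3% of all 33469 promoter windows of the table held at least 1 match. The AP-1 motif TGANTCA, found in 7.33% of all windows, matched neither. A match in letters is a description and was not tied to the measurements.

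On the early dust array, 4 of the 6 genes were at least 2-fold above both control arrays, namely Ccl2, Ccl3, Ccl4 and Ccl20, where 2.54% of 3667 genes above the floor were called higher by the same rule. None of the 6 was at least 2-fold below both controls, a call made for 0.3% of genes. On the intermediate array 2 of the 6 were higher, Ccl2 and Ccl3, beside 0.873% of all genes, and none was lower beside 0.218%. On the late array the same pair was higher, beside 0.6% of all genes, and none was lower beside 1.04%. These contrasts had been seen when the genes were chosen, so the counts describe the genes and support nothing further. By calls and highest array the genes fell into 4 groups. Ccl2 and Ccl3 were called higher on every dust array, and Ccl20 and Ccl4 on the early array alone. Ccl5 was highest on the untreated array, and Xcl1 stood out on the sham array. Ccl2, Ccl3, Ccl4 and Ccl20 were all highest on the early array. On the late array Ccl20 was below both controls and Ccl4 above both.

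**Figure D1:**
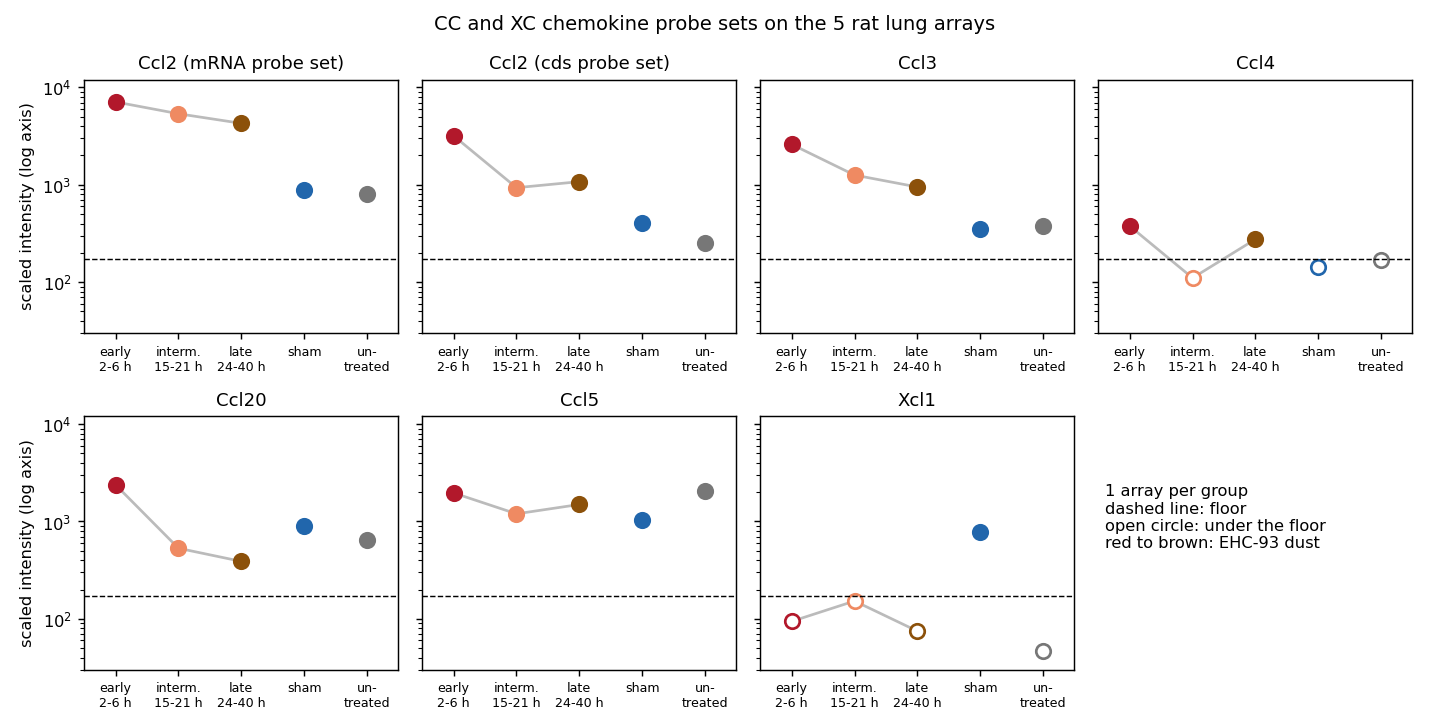
Scaled intensity (log axis) of the 7 chemokine probe sets on each of the 5 arrays, 1 point per array, with the floor of 173 as a dashed line and values under it as open circles. Ccl2 and Ccl3 lie above both controls on all 3 dust arrays, Ccl20 drops below them after the early array, and Xcl1 is above the floor on the sham array alone.

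Ccl2, the monocyte attractant, was read by probe sets X17053mRNA_s_at and X17053cds_s_at, whose IDs share one database entry. The first had scaled intensities of 7097, 5367 and 4277 on the early, intermediate and late dust arrays, against 888 (sham) and 812 (untreated). It was therefore 8-fold, 6.05-fold and 4.82-fold above sham on the 3 dust arrays in time order, and 8.74-fold, 6.61-fold and 5.27-fold above untreated. The sham array was 1.09-fold above the untreated array. Every dust array was far above both controls, and the controls lay close together.

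The cds probe set of Ccl2 had 3182, 933 and 1077 on the early, intermediate and late dust arrays, against 409 (sham) and 254 (untreated). It was 7.78-fold, 2.28-fold and 2.63-fold above sham and 12.5-fold, 3.67-fold and 4.23-fold above untreated. Both Ccl2 probe sets were thus past 2-fold over both controls on each dust array, but they disagreed on how much of the early level remained later. Early over intermediate was 1.32-fold by the mRNA probe set and 3.41-fold by the cds probe set, and early over late was 1.66-fold and 2.96-fold in the same order. By the first the early array did not stand 2-fold above both later arrays, and by the second it did.

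Probe sets at different ends of the control transcripts also differed between these arrays. The 5′ probe set of beta-actin was 5.97-fold higher on the early than on the intermediate array and the 3′ probe set 1.26-fold. For GAPDH the 5′ probe set was 2.41-fold higher, and the 3′ probe set stood at 0.846 of its intermediate value. The 5′ to 3′ ratio of beta-actin was 43.1%, 9.07% and 19.6% on the early, intermediate and late dust arrays, against 14.7% (sham) and 24.4% (untreated). The sources used here do not say where the Ccl2 probe sets lie along the transcript, and the part of RNA completeness in their disagreement was not tested. Its part in the early values of the other chemokines, against later or control arrays, was not tested either.

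**Figure D2:**
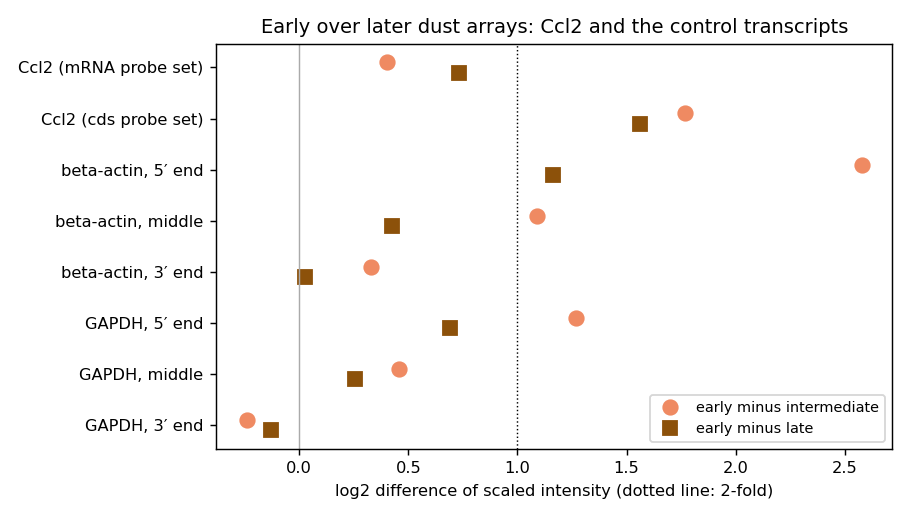
Log2 difference in scaled intensity of the early dust array from the intermediate (circles) and late (squares) arrays for both Ccl2 probe sets and for the 5′, middle and 3′ probe sets of the control transcripts, 1 array per group. The cds probe set of Ccl2 gives 1.77 and 1.56 where the mRNA probe set gives 0.40 and 0.73, and the 5′ ends of both control transcripts lie right of their 3′ ends.

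Ccl3, or MIP-1 alpha, attracts macrophages and other leukocytes and was read by U22414_at. It had 2600, 1258 and 950 on the early, intermediate and late dust arrays, against 353 (sham) and 377 (untreated). It was 7.37-fold, 3.57-fold and 2.69-fold above sham and 6.90-fold, 3.34-fold and 2.52-fold above untreated. The level was lower on each later dust array than on the one before, yet the late value was still above both controls. The early array was 2.07-fold above the intermediate and 2.74-fold above the late array, the first of these close to the 2-fold threshold.

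Ccl4, or MIP-1 beta, is the closest relative of Ccl3 in this set and its immediate neighbour in the GRCr8 annotation, with 0 annotated genes between them. Its probe set, U06434_at, was dim. It had 377, 110 and 276 on the early, intermediate and late dust arrays, against 144 (sham) and 168 (untreated). Only the early and late values were above the floor. The early array was at least 2.18-fold above both controls and the late array at least 1.60-fold, and no fold can be given for the intermediate array. On that array Ccl3 was still 3.34-fold or more above both controls.

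Ccl20, or MIP-3 alpha, an epithelial and macrophage product that attracts Ccr6-bearing cells, was read by AF053312_s_at. It had 2375, 531 and 389 on the early, intermediate and late dust arrays, against 907 (sham) and 638 (untreated). The early array was 2.62-fold above sham and 3.72-fold above untreated. Both later dust arrays lay below both controls. The log2 differences from sham were -0.77 (intermediate) and -1.22 (late), and those from untreated were -0.27 and -0.71. Of the 6 genes it had the steepest drop by main probe sets, with the early array 4.47-fold above the intermediate and 6.10-fold above the late array. The sham array was 1.42-fold above the untreated array.

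When the early array was set against both later dust arrays, without the controls, Ccl3 and Ccl20 were the 2 of 6 genes at least 2-fold higher, where 1.77% of all genes were. None was lower, beside 0.709% of all genes. Ccl4 was at least 2.18-fold above the intermediate array but 1.37-fold above the late array. Ccl5 was 1.64-fold and 1.31-fold above them. In the same comparison the 5′ probe set of beta-actin was 5.97-fold above the intermediate and 2.24-fold above the late array. That of GAPDH was 2.41-fold and 1.61-fold above them. The 3′ probe sets stood at 1.26 and 1.02 of those arrays for beta-actin, and at 0.846 and 0.915 for GAPDH. The part of RNA completeness in the Ccl3, Ccl4 and Ccl20 differences was not tested.

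**Figure D3:**
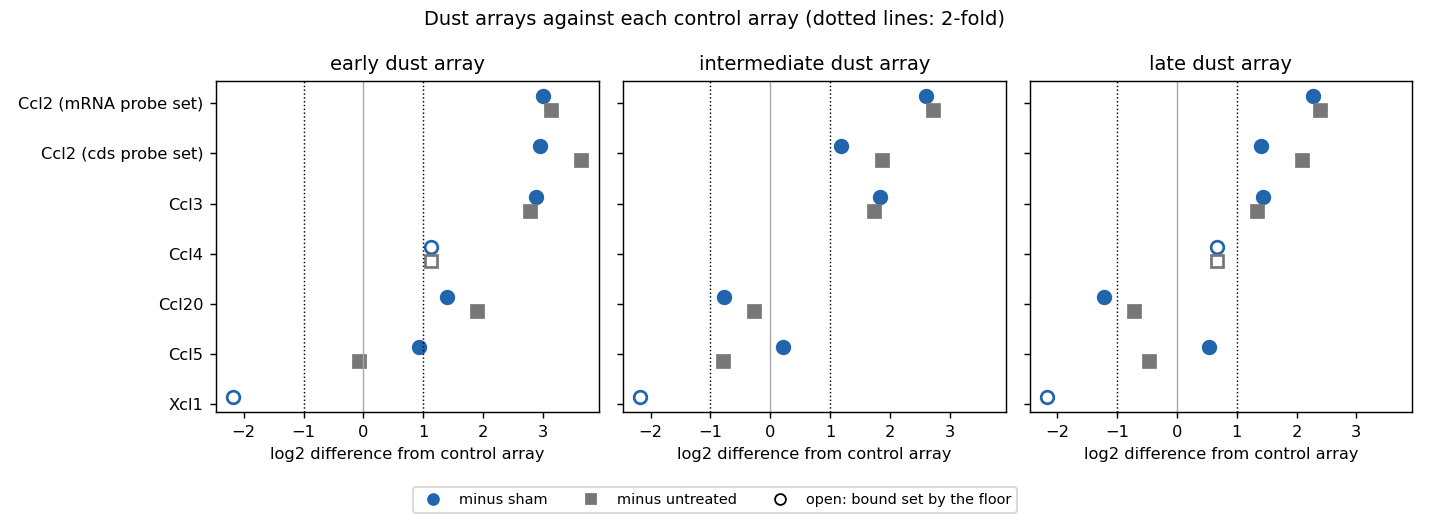
Log2 difference of each dust array from the sham array (circles) and from the untreated array (squares) for the 7 chemokine probe sets. Open symbols are bounds set by the floor, pairs with both values under the floor are not drawn, and dotted lines mark 2-fold. Both Ccl2 probe sets and Ccl3 lie right of 2-fold in all 3 panels, while Ccl20 changes side between the early panel and the later ones.

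Ccl5, or RANTES, a chemokine of T cells and of stimulated epithelium, was the only CC gene here called on no dust array. Its probe set, rc_AI009658_at, had 1963, 1199 and 1496 on the early, intermediate and late dust arrays, against 1028 (sham) and 2062 (untreated). All 3 dust arrays lay between the controls, so none could be called. In time order they were 1.91-fold, 1.17-fold and 1.45-fold above sham, and 1.05-fold, 1.72-fold and 1.38-fold below untreated. Against sham alone all were thus higher, though under 2-fold. The sham array was lower than the untreated array by 2.01-fold, the 1 gene of 6 past 2-fold in that direction, beside 1.61% of all genes. That call sits at the threshold, and under 3 other scalings the log2 difference was between -0.94 and -0.88.

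Xcl1, or lymphotactin, was read by rc_AI236158_at and gave 94.2, 152 and 74.8 on the early, intermediate and late dust arrays, against 779 (sham) and 46.2 (untreated). Only the sham value was above the floor. It was at least 4.51-fold above every other array. Sham over untreated was past 2-fold for 1 of the 6 genes, beside 1.55% of all genes. A sham value at least 2-fold above each of the other 4 arrays, a rule chosen after the Xcl1 values were seen, was met by 0.409% of all genes. The gene has no second probe set and the sham group no second array, so this value has nothing to check it against.

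The cells that make and answer chemokines were followed through marker lists. In these bulk samples more cells of a type and more RNA per cell cannot be told apart. Of 13 neutrophil markers 6 were on the array. S100a8 and S100a9, calcium-binding proteins of granulocytes, and Padi4, a granulocyte peptidylarginine deiminase, were higher on the early array. S100a9, Padi4 and Lcn2 were higher on the intermediate array, and Padi4 alone on the late array. Of the 4 above the floor, 3 were thus called higher early, 3 intermediate and 1 late, beside 2.54%, 0.873% and 0.6% of all genes. Some of these calls sat at the 2-fold threshold: with the values as deposited S100a9 lay 0.97 (early) and 0.83 (intermediate) above both controls on the log2 scale and Padi4 0.999 (early), so S100a8 alone stayed called early. S100a9 also missed 2-fold with 75th percentile scaling and quantile normalization, and Lcn2 with the last of these. The summed level of the 6 was 37112, 54570 and 41814 on the early, intermediate and late dust arrays, against 23016 (sham) and 8008 (untreated). Most of it was Lcn2, which epithelium also makes. Without it the sum was 6129, 5562 and 3637 on the dust arrays, against 2682 (sham) and 2032 (untreated). Cxcr2 and Mmp8 were under the floor on all 5 arrays. The list median above the mean of the controls was 1.40, 1.49 and 0.94 on the log2 scale, beside -0.01, 0.09 and 0.07 for all genes. The sums were thus higher on the dust arrays, as Ccl2 and Ccl3 were, and the part of neutrophils in the chemokine values was not tested.

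Of 13 macrophage and monocyte markers 7 were on the array, with sums of 53432, 73749 and 74776 on the dust arrays in time order, against 61346 (sham) and 55314 (untreated). Most of it was Lyz2, a lysozyme. Without it, a sum chosen after its values were seen, the other 6 gave 8653, 8608 and 10607 on the dust arrays, against 8379 (sham) and 7045 (untreated). The early array was thus below both controls with Lyz2 and above both without it. Cd14 was higher on the early array, though not with the values as deposited (0.97 on the log2 scale), and the Fc receptor Fcgr2b and the cathepsin Ctsk on the late array, while Csf1r and Itgam were under the floor throughout. Of the 5 above the floor 1, 0 and 2 were called higher in time order, beside 2.54%, 0.873% and 0.6% of all genes. The list median was -0.05, 0.37 and 0.47 on the log2 scale in time order. Fcgr2b had 925, 963 and 1417 on the dust arrays, against 367 (sham) and 564 (untreated), an order opposite to that of Ccl3 and of the mRNA probe set of Ccl2 over the phases, but not of the cds probe set. None of 12 T and NK cell markers above the floor was called on any dust array. At most 2.54% of all genes were called higher on a dust array and 1.04% lower. The 14 T and NK markers on the array summed to 5860, 6200 and 5880, against 5926 (sham) and 6927 (untreated). The T and NK sum was highest on the untreated array, as Ccl5 was. It was lowest on the early array, where Ccl5 was nearly as high (1963 against 2062 untreated). On the sham array, where Xcl1 was raised, the sum was not. The part of T and NK cells in the Ccl5 and Xcl1 values was not tested.

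Markers of the other cells of the lung showed no call on a dust array. At most 2.54% of all genes were called higher there and 1.04% lower, and 0 calls in lists this short lies near those shares. The 10 epithelial markers included Sftpc at 48085, 71970 and 67231 on the dust arrays, against 55179 (sham) and 53586 (untreated), and Sftpa1 at 33409, 47303 and 46214, against 37704 (sham) and 32178 (untreated). These surfactant genes mark the tissue as lung. The 5 endothelial markers (Ace and Kdr with the highest means), the 2 B cell markers (Cd74 and Cd79b) and the 2 mast cell or eosinophil markers above the floor (Tpsab1 and Cpa3) were likewise not called.

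Receptors for these ligands were sparsely covered, with 4 of 15 listed genes on the array. Ccr2 and Ccr3 were under the floor on all 5 arrays. Ccr1, the receptor of Ccl3 and Ccl5, had 388, 338 and 216 on the early, intermediate and late dust arrays, against 241 (sham) and 263 (untreated). It was not called on the early array, at 1.61-fold above sham and 1.47-fold above untreated. Ackr2, a scavenger of CC chemokines, was under the floor on the dust and sham arrays and read 184 on the untreated array. Ccl11 was the only one of 14 other CC chemokines on the array. This eosinophil attractant had 342, 332 and 175 on the dust arrays, against 353 (sham) and 191 (untreated), and was not called.

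Cytokines and receptors known to induce chemokine genes were called mostly on the early array. Higher calls over all genes were also most frequent on that array (93 early, 32 intermediate and 22 late). Of 11 above the floor 4 were higher early, beside 2.54% of all genes, and 7 were not called. The list median there was 0.93 on the log2 scale above the mean of the controls, beside -0.01 for all genes. The 4 were Tnf, Il1a, Il1b and the endotoxin co-receptor Cd14. Il1b, a known inducer of Ccl2 and Ccl20, had 4479, 3451 and 2057 on the dust arrays, against 1131 (sham) and 692 (untreated). Tnf was above the floor on the early array only, at 363, at least 2.11-fold above both controls. Il1a had 1122 there, against 430 (sham) and 366 (untreated). On the intermediate array Il1b alone was higher, beside 0.873% of all genes (list median 0.35, beside 0.09 for all genes). On the late array no member was, beside 0.6% of all genes (0.43 beside 0.07). Tnf, like Ccl20, was thus called on the early array alone, and Il1b by its brightest probe set on the early and intermediate arrays. Another Il1b probe set, M98820_g_at, was past 2-fold on the late array too, at 889 against 376 (sham) and 384 (untreated). The Cd14 call was lost with the values as deposited and under 2 other scalings (0.91 to 0.97 on the log2 scale), and a second Cd14 probe set was not called. With probe sets averaged Cd14 (0.95) and Il1a (0.82) both missed 2-fold.

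Nfkbia, the NF-kB inhibitor that NF-kB itself induces, was higher on the early array, at 7182 against 3279 (sham) and 2552 (untreated). It was the 1 of 3 measured NF-kB genes called there, beside 2.54% of all genes called higher. That call was lost with 75th percentile scaling (0.95 on the log2 scale) and quantile normalization (0.98). Its levels of 4503 and 3957 on the later arrays were not called. The list medians were 0.61, 0.64 and 0.22 on the log2 scale in time order. Among 16 measured genes of chemokine receptor signalling the transcription factor Stat3 alone was higher on the early array, beside 2.54% of all genes. It had 370 there, against 127 (sham, under the floor) and 176 (untreated). Its other probe set was not called there, and the list median was 0.19 on the log2 scale. The small GTPase Rac1, alone of these 16, was lower on the late array, beside 1.04% of all genes. It had 843 there, against 2043 (sham) and 2327 (untreated). Of 11 measured proteases and proteoglycans that act on chemokines, Mmp12, a macrophage elastase that cuts CC chemokines, alone was higher on each dust array. It had 381, 749 and 822 in time order, against 119 (sham, under the floor) and 190 (untreated). The shares of all genes called higher were 2.54%, 0.873% and 0.6%. The early Mmp12 call sat at the threshold, 2.01-fold above untreated, and under 3 other scalings the log2 difference was between 0.94 and 0.96. The median of that list was 0.14, 0.06 and 0.13 on the log2 scale. The order of Mmp12 over the phases was the reverse of that of Ccl3, Ccl20 and the mRNA probe set of Ccl2, but not of the cds probe set.

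**Figure D4:**
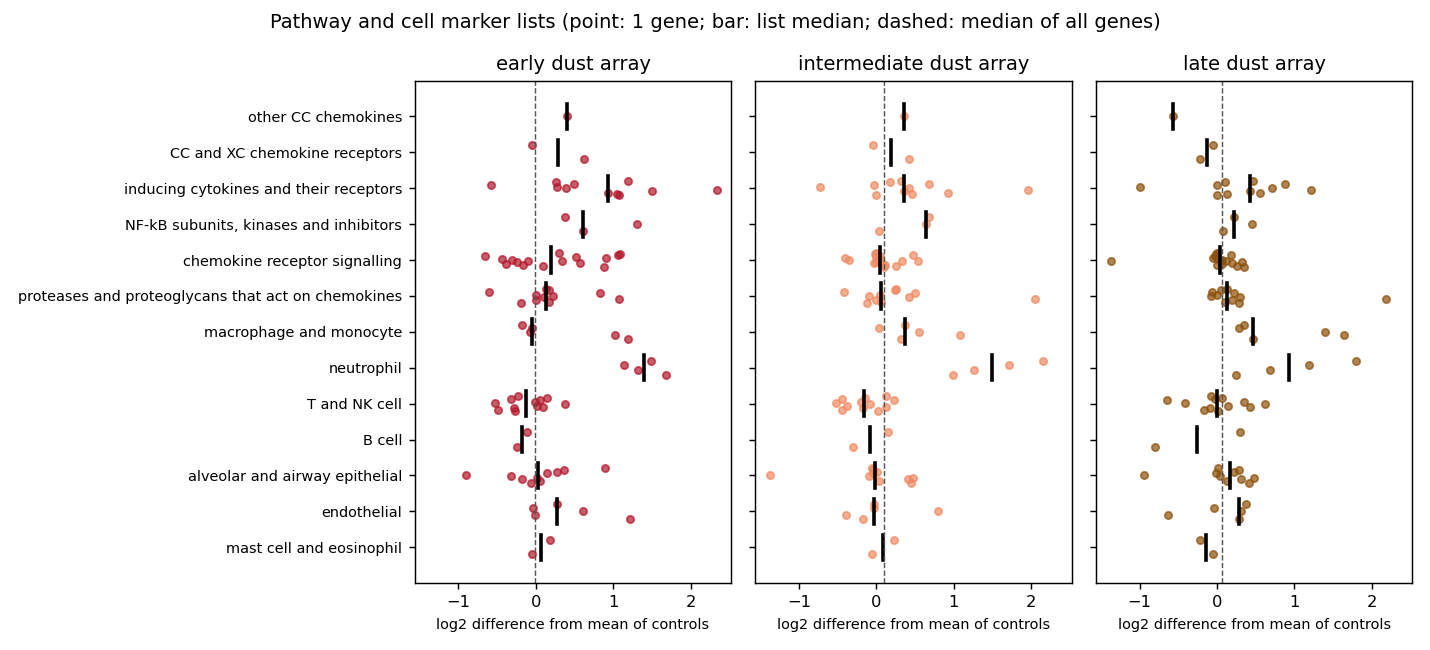
Log2 difference from the mean of both control arrays on each dust array, 1 point per gene above the floor, for 6 pathway lists and 7 cell marker lists. Black bars are list medians and dashed lines the median of all genes. The inducing cytokines have their highest median on the early array (0.93), and the neutrophil markers lie right of the dashed line on all 3 arrays.

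For each chemokine the 3 genes with the nearest profile were found as the smallest root mean square difference of log2 values over the 5 arrays, each profile centred on its own mean. With 5 points these are descriptions. Nearest to Ccl2 were Ccl3 (0.42), the inducible nitric oxide synthase Nos2 (0.43) and Il1b (0.48), beside a median of 1.33 over all genes. Nearest to Ccl3 were the nucleoside kinase Uck2 (0.27), Il1b (0.34) and Nos2 (0.38), beside a median of 1.10. Nos2 and Il1b were thus among the nearest 3 of both. Other probe sets of Nos2 above the floor did not have this profile, whereas both such probe sets of Il1b were also past 2-fold on the early and intermediate arrays, and 1 of them on the late array.

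Nearest to Ccl20 were the cytokine-induced signalling inhibitor Cish (0.17), the matrix protein Ltbp2 (0.33) and the survival gene Bcl2l1 (0.35), beside a median of 0.95. Cish had 769 on the early array, values under the floor on the later ones, against 340 (sham) and 246 (untreated). It was also above both controls early and below both later. Other probe sets of Bcl2l1 above the floor lay 0.86 and 0.42 above both controls on the early array on the log2 scale, under 2-fold, and 1 of them was not below both on the late array. Another probe set of Ltbp2 was under the floor on every array. Nearest to Ccl4 were Plaa (0.09), Bhlhe40 (0.10) and Atp6v1b2 (0.12), beside a median over all genes of only 0.52. Ccl4 itself was set to the floor on the intermediate, sham and untreated arrays, which flattens its profile. Nearest to Ccl5 were Dcaf11 (0.05), Cenpw (0.09) and Tubgcp6 (0.11), beside a median of only 0.45. Dcaf11 had 762, 425 and 536 on the dust arrays, against 377 (sham) and 736 (untreated). Nearest to Xcl1 were the neuropeptide Adcyap1 (0.25), the transcription factor Gata4 (0.31) and the cytokine signalling inhibitor Socs3 (0.33), beside a median of 0.93. They read 508, 593 and 524 on the sham array. Other probe sets of Adcyap1 and Gata4 were under the floor on that array.

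**Figure D5:**
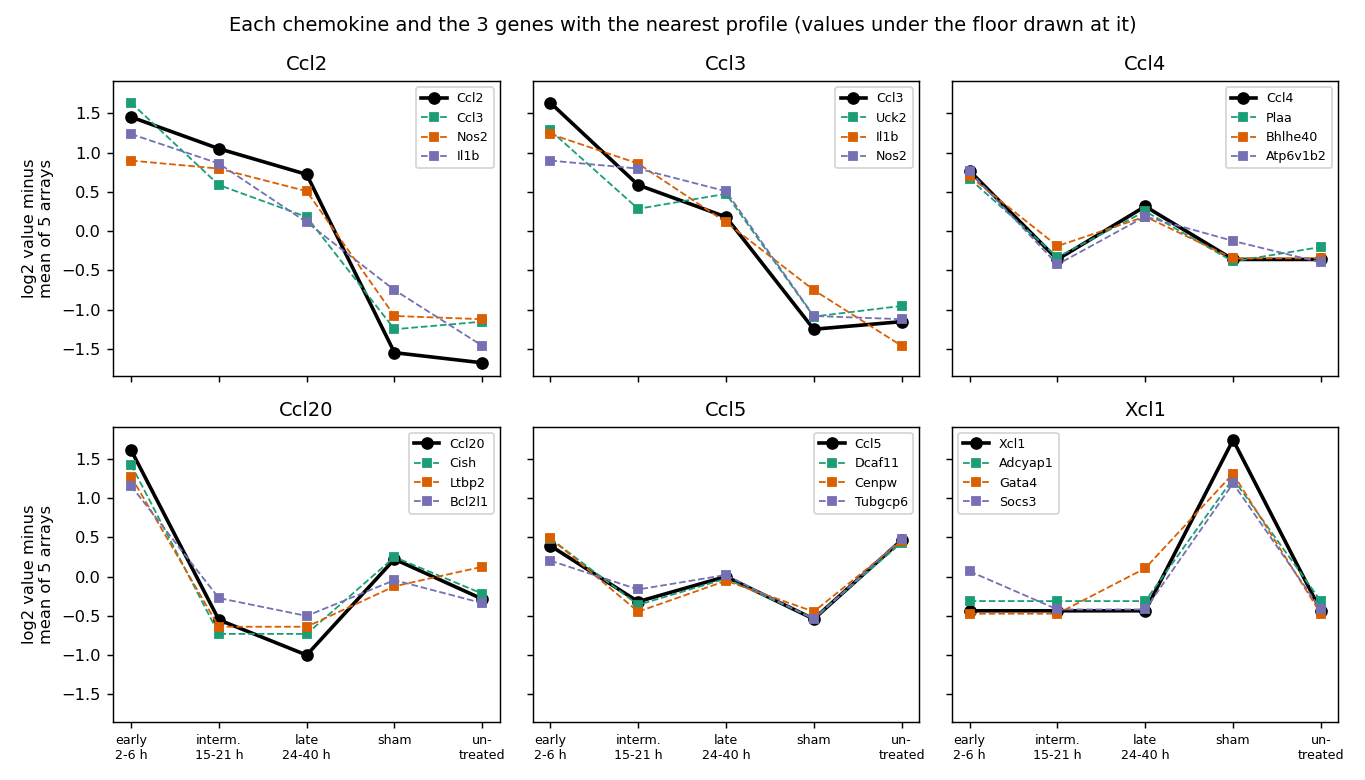
Log2 value minus its mean over the 5 arrays for each chemokine (black) and the 3 genes with the nearest profile (colours), with values under the floor drawn at the floor. Ccl20 and its neighbours peak on the early array and dip later, and Xcl1 and its neighbours peak on the sham array.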

How the data were processed

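The authors deposited a linear intensity for each of 8799 probe sets on each array. They appear to have scaled the arrays, judged from the values: after trimming 2% at each end, the mean lay between 1001.38 and 1001.63 on every array. The sources used here name no algorithm or software. The 59 control probe sets were set aside. Probe sets with 1 symbol in the platform annotation (7006) were named, and those with several (308) or none (1426) were not.

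From the deposited intensity, arrays were scaled to a common median (factors 0.931 to 1.07; medians as deposited 262 to 301), floored at the 40th percentile (172.53) and taken to log2. Where the lower value was at the floor the fold is a bound, written "at least". Each gene was taken from its brightest probe set by mean log2 value over the 5 arrays, and 3167 to 3250 genes were above the floor per array. A call is a difference of at least 2-fold from both control arrays. With 1 array per group no test was run and no p-value is given; the number of arrays limits the precision. An _s_at probe set can match several similar transcripts. Named are all chemokine probe sets, the list genes called on a dust array (where none was, the 2 with the highest mean), and the 3 nearest profiles per gene. The members, lists and motifs were chosen with earlier results of these data, or the windows, known. The scaling and the fold rule were tested on simulated data, with changes set in bright probe sets only. Changes in dim genes, the nearest profiles and the motif search were not tested in that way. Python 3.11.15, numpy 2.4.6 and pandas 2.3.3 were used.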

Additional observations from a re-analysis of the deposited data

Results flagged for a closer look

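Some genes lay above both controls on one dust array and below both on another, with at least 1 of the differences past 2-fold. With 1 array per group these differences between phases were not tested. Ccl20 was above both controls on the early array and below both on the later ones, and its early level exceeded the intermediate by 2.16 and the late by 2.61 on the log2 scale. Among genes near it in profile, Cish differed by 2.16 from each later array and Ltbp2 by 1.91 from each, all bounds set by the floor, and Bcl2l1 by 1.66 from the late array. For Bcl2l1 this holds for the brightest probe set: another, S78284_s_at, lay 0.86 above both controls early and 0.02 above both late, and with probe sets averaged the early difference from the controls was 0.71. Rac1 was above both controls by 0.24 (early) and 0.45 (intermediate), under 2-fold, and was called on the late array only. Its late level, below both controls, was lower than the early by 1.71 and lower than the intermediate by 1.91.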

How the results depend on the processing

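No paired analysis was possible because each group is 1 array. The chemokine counts changed as follows. With a 3-fold threshold 2 genes were higher on the early array, 1 on the late array and 1 on the early over both later arrays. With the floor at the 60th percentile 0 were higher on the sham over the untreated array, since Xcl1 then gave 0.77 on the log2 scale, and Ccl4 was no longer called early. Of 251 values of single chemokines under other settings, 240 kept their side of the 2-fold threshold, 5 lost it, 6 gained it and 0 turned direction while called. Some of these values could not change. Every gene but Ccl2 has 1 probe set, so the settings that choose or average probe sets left the others as they were. A difference is also set to 0 where a dust array lies between the controls or shares the floor with one. A change of direction there would not show. Ccl2 stayed 1.19 or more above both controls on every dust array in every setting, and Ccl3 1.05 or more. On the early over both later arrays 3 genes were higher with probe sets averaged, where Ccl2 gave 1.09 on the log2 scale, and likewise with the cds probe set of Ccl2, a setting chosen after seeing the data. At 1.5-fold 3 were higher on the late array. Of the other genes named from the lists, Stat3 lost its early call with either other floor and with probe sets averaged, and Tnf, Mmp12 and Ctsk lost theirs with the floor at the 60th percentile.

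Counts over all genes depend on the settings. Higher on the early array were 146 with the floor at the 20th and 53 at the 60th percentile, 251 at 1.5-fold, 23 at 3-fold, 158 against sham alone and 148 against untreated alone (93 as reported). Lower there were 18 as deposited, 21 with 75th percentile scaling, 66 and 3 with those floors, 6 with probe sets averaged, 109 and 0 at those folds, and 68 and 75 against those single controls (11 as reported). Higher on the intermediate array were 21 as deposited, 103 with the 20th percentile floor, 174 and 9 at those folds, and 87 and 88 against single controls (32 as reported). Lower there were 14 as deposited, 13 with 75th percentile scaling, 60 and 0 with those floors, 58 and 0 at those folds, and 59 and 34 against single controls (8 as reported). Higher on the late array were 92 and 12 with those floors, 112 and 4 at those folds, and 74 and 64 against single controls (22 as reported). Lower there were 93 and 21 with those floors, 127 and 7 at those folds, and 84 and 98 against single controls (38 as reported). Dropping a control or loosening a limit gives more calls by construction. Higher genes were 89.4% of early calls against 76.9% with 75th percentile scaling, 80% of intermediate calls against 60% as deposited, and 36.7% of late calls against 25% as deposited. The median gene lay 0.13 above sham on the intermediate array on the log2 scale, and at 0 with values as deposited. Signal near the floor limits Ccl4, and the dust values of Xcl1.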
